A study of Rattus norvegicus with 48 samples.

Results

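The genes described here are the 172 genes of the rat liver slice count table that are abundant but absent from the table of expressed protein-coding genes that the authors deposited beside it. They were chosen by level alone: a gene was included when its identifier was missing from that table and its mean level over all 48 libraries was at least 10 CPM (the gene's count as a share of the library's total count, scaled to a total of 1000000). The count table holds 32883 genes. Of these, 18465 are outside the coding table, and 596 of the 18465 reached a mean of 1 CPM. The coding table holds 14418 genes, 9364 of them at 10 CPM or more. The last genes included had means of 10.3, 10.3 and 10.2 CPM, and the first left out had 9.87, 9.68 and 9.58 CPM.

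Each library holds RNA of precision-cut rat liver slices, which are thin pieces of live liver kept in culture. The donor rats had either a sham operation or a ligated bile duct (bile duct ligation, BDL), which stops bile outflow and leads to cholestatic injury and fibrosis. The 5 groups are Sham_veh (sham slices with vehicle, 9 libraries), BDL_veh (ligated, vehicle, 10), BDL_Sora (ligated, the compound the labels call Sora, 10), BDL_Nint (ligated, the compound called Nint, 10) and BDL_SB525334 (ligated, 9). SB525334 is an inhibitor of the type I receptor kinase of transforming growth factor beta. The labels give no dose, time, strain, age or number of animals, so libraries of a group may share an animal and the p-values measure the spread between libraries only. The deposited sample sheet names the group of all 9 SB525334 libraries by another compound code; the name of the labels is used here.

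RNAs outside the protein-coding set include structural RNAs that most cells hold in large amounts. The RNA component of the signal recognition particle guides ribosomes to the endoplasmic reticulum, and RNase P and RNase MRP are RNA-protein enzymes that process other RNAs. Small nucleolar and small Cajal body RNAs guide the modification of ribosomal and spliceosomal RNAs, the 2 mitochondrial ribosomal RNAs belong to the mitochondrion's own ribosomes, and long intergenic RNAs are a mixed class of transcripts without a known protein product. The identifiers are Ensembl identifiers, 0 of the 172 could be matched to a symbol, and no sequence is printed for that reason. Genes are therefore called by rank: member 1 has the highest mean CPM and member 172 the lowest. CPM is not corrected for gene length, so the ranks order counts and not molecules. The liver cell markers chosen for these slices need symbols too and were not examined.

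Total counts ran from 12249470 to 29596987 per library. An approximate upper limit on the expected count where 0 were counted is 3 counts, equal to 0.101 to 0.245 CPM (counting error only). All 172 members passed the filter on low counts, among 14775 genes tested. Some libraries stood apart. Sham libraries 1, 3, 5 and 9 had microRNA rates of 0.0341% to 0.0712% of mapped alignments, against 0.0157% to 0.0214% in the other sham libraries. Library 4 of SB525334 had the highest microRNA rate, 0.101%. Alignments with more than 1 position made up 9.85% to 20.9% in SB525334 libraries, 10.2% to 12.7% in sham libraries and 8.01% to 9.25% in the other ligated libraries. Intronic alignments made up 33.7% to 36.8% in BDL_veh, 24.4% to 31.1% in Sham_veh and 26.0% to 33.1% in SB525334 libraries. The part of these differences in the results below was not tested, except where values without the named libraries are given.

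Most of the counts lay in few genes. The 10 members at 1000 CPM or more held 10.3% of all counts on average and 89.6% of the counts of the 172. The 23 members between 100 and 1000 CPM held 0.686%, and the 139 between 10 and 100 CPM held 0.458%. The ratio between the highest and the lowest group mean had a median of 2.06 over the 172 members and ran from 1.11 to 157. It reached 2 in 92 members, 4 in 28 and 10 in 8. The highest group mean was that of SB525334 in 71 members, of BDL_veh in 40 and of Sham_veh in 35, and the lowest was that of Sham_veh in 84. Members 155 and 156 reached 10 CPM in 1 group only, SB525334 and Sham_veh respectively, and so had to differ between groups to be included.

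Many of the members are counted with reads that fit more than 1 gene. The deposited counts are estimates in which such reads are divided between genes, and a divided count is usually not whole. In 82 of the 172 members (47.7%) the count was not whole in any of the 48 libraries, against 611 of the 9364 abundant coding-table genes (6.52%). Only 58 members (33.7%) had whole counts in all 48 libraries, against 77.8% of the coding-table genes. The estimates of members 1 and 3 parted in 2 libraries. In Nint library 9, member 1 was at 3648 CPM, against 20979 to 23762 CPM in the other 9 Nint libraries, while member 3 was at 34617 CPM, against 15153 to 17248. In SB525334 library 6, member 1 was at 16254 CPM and member 3 at 32472 CPM. Their sum in the Nint group ran only from 36325 to 39904 CPM, library 9 included. Members 1 and 3 are therefore also given as 1 summed value.

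**Figure D1:**
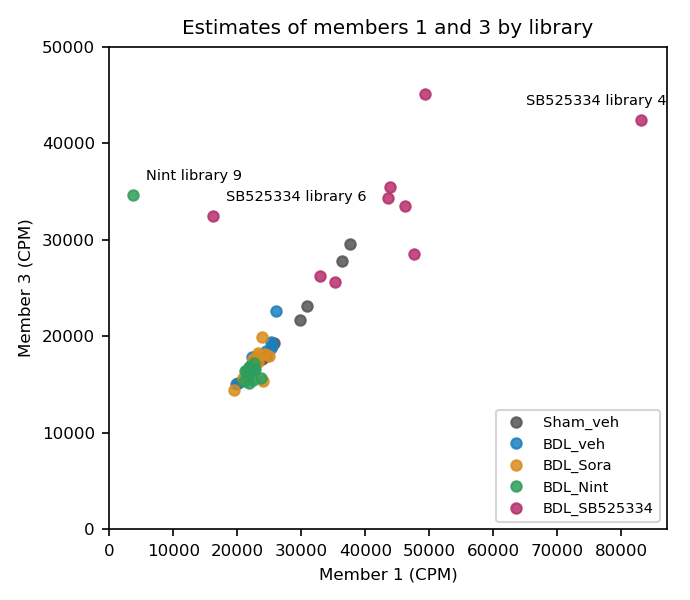
Level of member 1 (horizontal axis) and member 3 (vertical axis) in each of 48 libraries, in CPM, coloured by group. Nint library 9 lies at 3648 CPM for member 1 and 34617 CPM for member 3, apart from the other Nint libraries, and SB525334 library 4 lies farthest to the right.

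The quality table that the authors deposited counts alignments by annotated RNA class, and the counts of single members were set against these class sizes. Single members were divided by many classes in turn, and the pairs given are those whose ratio varied least between libraries. The pairs were thus picked from these same data, and a small coefficient of variation is no test of class. A read pair gives up to 2 alignments, so the counts of a member were multiplied by 2 for this comparison. Member 4 came to 76.0% of the alignments to mitochondrial ribosomal RNA (median over 48 libraries, range 73.3% to 78.2%) and member 7 to 13.0%. Members 4 and 7 together came to 89.3% (85.9% to 91.5%), with a coefficient of variation of 1.24%. Member 6 came to 76.5% (61.8% to 81.3%) of the class named ribozyme, which holds RNase P and RNase MRP type RNAs. Member 15 came to 50.1% (39.1% to 53.2%) of the small Cajal body class. Members 12 and 17 came to 67.5% and 47.1% of that class (medians), so these 3 ratios cannot all be shares of it. Members 5, 8 and 10 together came to 56.7% (49.2% to 68.2%) of the long intergenic class, with member 5 alone at 35.0%. Member 2 came to 54.3% (38.3% to 57.9%) of the class misc_RNA, while members 1 and 3 together came to 105% (96.1% to 155%), so these 3 cannot all have been counted in that class in the same way. The ratios describe sizes; the files do not give the class of a member.

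With bile duct ligation 8 of the 10 leading members were called lower and none higher, where 42.2% of all genes tested were called lower and 40% higher. The remaining members changed in both directions. Member 5, the largest of the genes compared above with the long intergenic class, had 7530, 8935 and 11575 CPM (lowest, median and highest library) in Sham_veh and 4315, 5455 and 6478 CPM in BDL_veh. The groups did not overlap, and the log2 fold change was -1.15 (SE 0.09; adjusted p = 3.29e-16). Folds and adjusted p-values are from edgeR's quasi-likelihood test with TMM scaling and Benjamini-Hochberg adjustment over all genes tested, unless a sentence names another test. Members 8 and 10 fell beside it, by 1.17 and 1.03 on the log2 scale. In slices, which hold many cell types, fewer cells of a type and less RNA per cell cannot be told apart.

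The 2 genes set beside the mitochondrial ribosomal class above fell with ligation as well. Member 4 had 13905, 14923 and 17259 CPM in Sham_veh and 9401, 9878 and 10427 CPM in BDL_veh, a log2 change of -0.98 (SE 0.10; adjusted p = 6.13e-12). Member 7 had 2340, 2788 and 3312 CPM in Sham_veh and 1556, 1631 and 1741 CPM in BDL_veh, a log2 change of -1.11 (SE 0.12; adjusted p = 1.54e-11). Neither gene overlapped between the groups. The class rate itself went from 1.0003% ± 0.0786 (SD, n = 9) of mapped alignments in Sham_veh to 0.524% ± 0.0208 (n = 10) in BDL_veh.

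Members 1 and 3 summed were lower by 0.59 on the log2 scale after ligation (SE 0.12; adjusted p = 2.7e-05). Their summed CPM overlapped between the groups, from 35128 to 67239 in Sham_veh and from 34887 to 48705 in BDL_veh. Sham libraries 1, 3, 5 and 9 had 51559 to 67239 CPM. The remaining sham libraries had 35128 to 45032 CPM, inside the BDL_veh range. When libraries were scaled by total counts, the log2 changes of member 1 and member 3 were -0.25 (adjusted p = 0.219) and -0.22 (adjusted p = 0.11), and neither was called. Member 9 was called lower with TMM factors (-0.32; adjusted p = 0.0051) but had a log2 change of 0.04 with total counts (adjusted p = 0.723). Members 2 and 6 were not called, with log2 changes of -0.04 (adjusted p = 0.602) and 0.10 (adjusted p = 0.301). Yet their CPM did not overlap and was higher in the ligated group: member 2 had 16908, 18153 and 20717 CPM in Sham_veh and 21013, 22290 and 24119 CPM in BDL_veh. CPM divides by total counts alone, while TMM scaling first multiplies each total by a factor for that library. With total counts the median log2 change of all genes moved from -0.05 to 0.30, and member 2 then had a log2 change of 0.31 (adjusted p = 5.69e-06, edgeR). Of the leading 10, members 4, 5, 7, 8 and 10 were called lower under each of 5 scalings (TMM, TMM on coding-table genes, relative log expression, total counts and DESeq2).

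Over all 172 members, 71 were higher and 68 lower after ligation, and 33 were not called. That is 80.8% called, against 82.2% of all genes tested (40% higher and 42.2% lower), a share of changed members close to that of the whole table. The median log2 change was 0.07 for the members and -0.05 for all genes tested. With total counts the split became 97 higher and 41 lower. All 71 higher calls and 41 of the 68 lower calls stood under each of the 5 scalings. At 2-fold or more, 27 members were higher and 20 lower (25.7% and 12.8% of all genes tested).

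The widest contrast belonged to member 18, picked out here after its values were seen. It had 3.98, 6.02 and 10.1 CPM in Sham_veh and 693, 989 and 1396 CPM in BDL_veh, a log2 change of 6.94 (SE 0.23; adjusted p = 7.64e-30). Member 158 went from 0.318 ± 0.185 CPM (n = 9; 1 sham library at 0 counts) to 19.8 ± 2.30 CPM (n = 10), and member 96 from 1.04 ± 0.232 to 33.2 ± 5.39 CPM. All 3 were far outside the range of the sham libraries. Without the BDL_veh libraries the mean of member 158 would be under 10 CPM, so its values are a description only. In the other direction, member 156 had 17.5, 33.3 and 55.8 CPM in Sham_veh and 4.49, 6.62 and 7.74 CPM in BDL_veh, a log2 change of -2.73; no test is given, because this gene is in the set only through its sham level. Member 23 fell from 264 ± 38.1 to 117 ± 6.37 CPM, with no overlap; its count was not whole in any library.

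**Figure D2:**
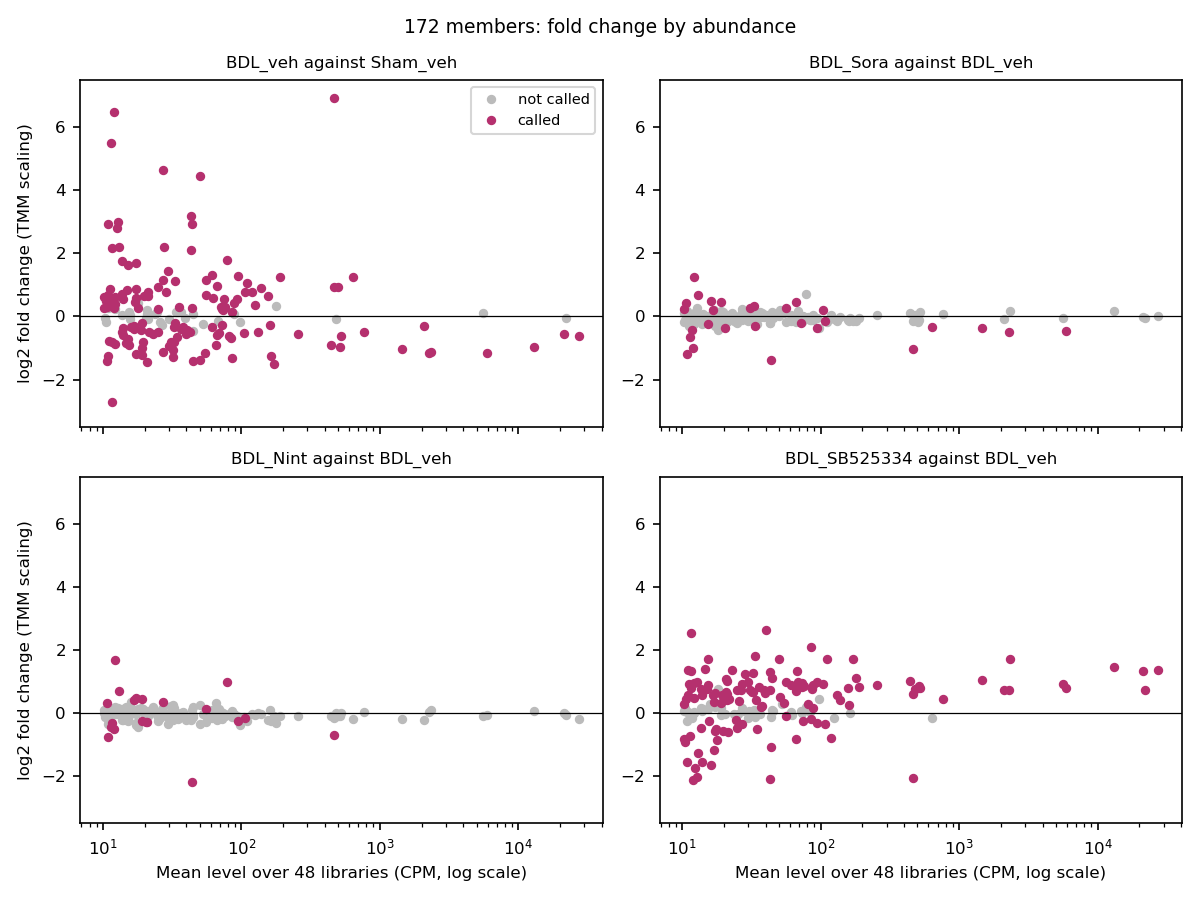
Log2 fold change with TMM scaling (vertical axis) of the 172 members against mean level over 48 libraries (horizontal axis, CPM, log scale) in 4 comparisons; coloured points passed an adjusted p of 0.05. After ligation the points spread both ways, from -2.73 to 6.94, while with SB525334 the 10 members above 1000 CPM all lie between 0.73 and 1.72.

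The summed share of the members in library counts differed little between sham and ligated vehicle slices, and the difference rested on part of the sham libraries. The share was 11.6% ± 1.51 (SD, n = 9) in Sham_veh and 10.5% ± 0.505 (n = 10) in BDL_veh (difference -1.11 percentage points; exact permutation test, adjusted p = 0.047 over 6 comparisons). Sham libraries 1, 3, 5 and 9, which had the high microRNA rates, were at 11.9% to 13.8%, and the other 5 at 9.97% to 10.6%. Without these 4 libraries the difference was 0.0738 percentage points in the opposite direction (exact permutation test, adjusted p = 0.761). The group means of the 2 parts of the sum moved apart. The 10 leading members went from 10.6% ± 1.48 to 9.20% ± 0.489, and the other 162 from 0.946% ± 0.0683 to 1.26% ± 0.0291. The fall of the leading 10 rested on the same sham libraries: 1, 3, 5 and 9 had 10.9% to 12.8%. The remaining sham libraries had 9.06% to 9.80%, inside the BDL_veh range of 8.39% to 9.88%.

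SB525334 raised the 10 leading members in ligated slices, all of them, under each scaling used. The summed share of the 172 members was 16.5% ± 3.71 (SD, n = 9) with SB525334, against 10.5% ± 0.505 (n = 10) with vehicle. The SB525334 libraries ran from 11.7% to 23.98% and the vehicle libraries from 9.62% to 11.2%, with no overlap (difference 6.06 percentage points; exact permutation test, p = 2.17e-05, the smallest this design can give; adjusted p = 4.33e-05). Libraries 4 and 6 were the highest and the lowest of the group, and without library 4 the difference was 5.12 percentage points (exact permutation test, adjusted p = 9.14e-05). Libraries 1, 6 and 8, whose microRNA rates lay inside the BDL_veh range, were at 13.3%, 11.7% and 12.9%. The remaining SB525334 libraries were at 16.3% to 23.98%. Without libraries 1, 6 and 8 the difference was 7.99 percentage points (exact permutation test, adjusted p = 0.0005). The 10 leading members accounted for the shift: they held 15.2% ± 3.61 against 9.20% ± 0.489, while the other 162 held 1.29% ± 0.112 against 1.26% ± 0.0291.

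**Figure D3:**
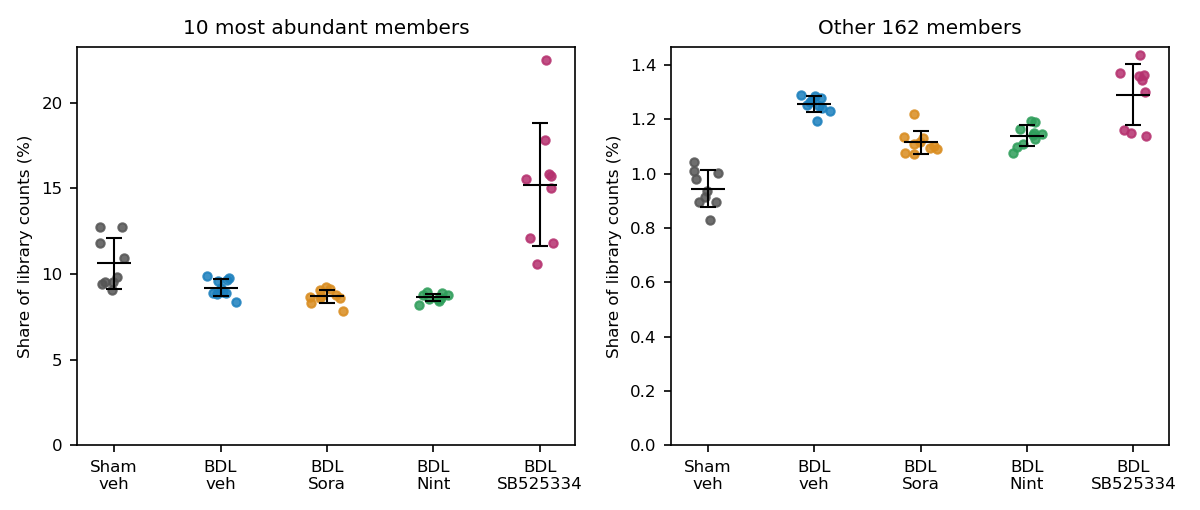
Share of each library's counts (percent) held by the 10 most abundant members (left) and by the other 162 (right), 1 point per library, with group mean and SD as bars. On the left, SB525334 libraries run from 10.6% to 22.5% and vehicle-treated ligated libraries from 8.39% to 9.88%; on the right all groups lie between 0.831% and 1.44%.

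Among the single genes, members 7 and 4 had the largest folds of the leading 10. Member 4 had 14068, 20628 and 34457 CPM with SB525334, above every BDL_veh library (9401 to 10427 CPM), with a log2 change of 1.48 (SE 0.11; adjusted p = 3.86e-17). Member 7 had 2452, 4315 and 7138 CPM, against 1556 to 1741 CPM, with a log2 change of 1.72 (SE 0.12; adjusted p = 5.19e-17). Library 4 held the highest value of both. Members 1 and 3 summed had 48726, 77776 and 125530 CPM, against 34887, 41556 and 48705 CPM in BDL_veh, and a log2 change of 1.34 (SE 0.12; adjusted p = 2.09e-13). The lowest SB525334 library was thus just above the highest vehicle library.

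The log2 changes of the remaining leading members were 0.74 for member 2, 0.93 for member 6, 0.78 for member 5, 0.73 for member 8, 0.74 for member 9 and 1.05 for member 10, all called. Their CPM overlapped between the groups; member 5, for example, had 5181, 6441 and 8619 CPM with SB525334 and 4315, 5455 and 6478 CPM with vehicle. The changes of the leading 10 ran from 0.73 to 1.72 with TMM factors and from 0.31 to 1.28 with total counts, which moved the median of all genes from 0.04 to -0.38.

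Over all members, 96 were higher with SB525334 and 32 lower, and 44 were not called. That is 74.4% called, against 73% of all genes tested. Higher calls made up 55.8% of the members and 38.2% of all genes tested, and lower calls 18.6% and 34.8%. The median log2 change was 0.42 for the members, 0.12 for coding-table genes of the same abundance and 0.04 for all genes tested. The split depends on the scaling: with total counts 63 members were higher and 73 lower. Of the members called with TMM factors, 11 then had the other sign, 4 of them past the threshold. Of the 96 higher calls 63 stood under each of the 5 scalings, as did all 32 lower calls. With total counts the median of the members was 0.01 and that of all genes -0.38. Without library 4, 97 were higher and 30 lower. By abundance, 17 of the 23 members between 100 and 1000 CPM were higher and 3 lower, and 69 of the 139 between 10 and 100 CPM were higher and 29 lower.

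The members with the largest rise and fall under SB525334 are named by identifier. ENSRNOG00000054031 (member 73) stood at 17.3, 27.4 and 32.0 CPM in Sham_veh and at 21.5, 24.4 and 26.6 CPM in BDL_veh, and at 90.5, 117 and 128 CPM with SB525334. Each SB525334 library was above every other library of the series, and the log2 change against vehicle was 2.63 (SE 0.09; adjusted p = 4.93e-29). With Sora the mean was 24.04 ± 2.19 CPM and with Nint 21.1 ± 2.68 CPM, neither called against vehicle. Ligation itself gave a log2 change of -0.42 (adjusted p = 1.8e-05, edgeR), which total-count scaling reduced to -0.07 (adjusted p = 0.453).

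ENSRNOG00000001103 (member 155) was higher after ligation and higher again with SB525334. It had 0.557, 1.13 and 3.07 CPM in Sham_veh, 6.45, 8.17 and 11.4 CPM in BDL_veh and 17.99, 32.7 and 47.7 CPM with SB525334, with no overlap between the 3 groups. It is in the set only through its level with SB525334, so its values are a description and no test is given for them; the log2 changes were 2.18 for ligation and 2.53 for SB525334 against vehicle. Its means with Sora and Nint were 6.86 ± 1.27 and 7.91 ± 1.40 CPM.

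ENSRNOG00000052547 (member 153) and ENSRNOG00000060829 (member 71) went the other way. ENSRNOG00000052547 had 0.0583, 0.206 and 0.557 CPM in Sham_veh, near the limit of detection, and 18.9, 25.8 and 29.6 CPM in BDL_veh. With SB525334 it had 2.36, 3.90 and 5.99 CPM, a log2 change of -2.13 against vehicle, still above all sham libraries. With Sora it had 8.04, 12.1 and 16.3 CPM (log2 change -0.998) and with Nint 13.5, 16.9 and 19.7 CPM (-0.50). Without the BDL_veh libraries its mean would be under 10 CPM. Its place in the set thus rests on its vehicle level, and no test is given for these changes. ENSRNOG00000060829 had 2.74, 6.27 and 10.03 CPM in Sham_veh, 63.1, 70.2 and 84.0 CPM in BDL_veh and 9.64, 11.2 and 18.2 CPM with SB525334. Its log2 changes were 3.17 for ligation (SE 0.13; adjusted p = 5.16e-27) and -2.10 for SB525334 against vehicle (SE 0.12; adjusted p = 2.73e-20). Sora (58.8 ± 7.998 CPM) and Nint (60.3 ± 8.06 CPM) were not called for this gene.

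**Figure D4:**
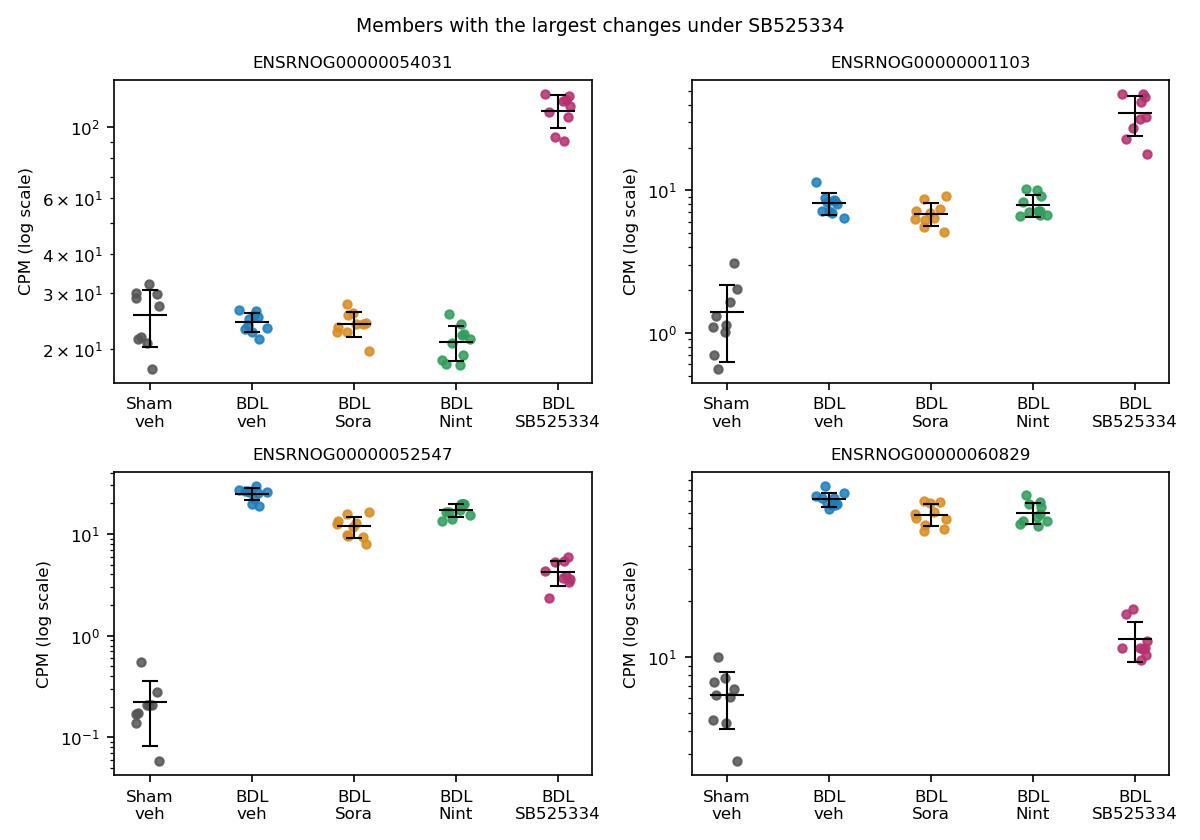
Level (CPM, log scale) of the 4 named members in each library, with group mean and SD as bars. The SB525334 libraries lie above every other group in the upper panels, at 90.5 to 128 and 17.99 to 47.7 CPM, and between the sham and the vehicle-treated ligated libraries in the lower left panel, at 2.36 to 5.99 CPM.

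A few further members, picked out after their values were seen, moved against the direction of ligation with SB525334; both comparisons share the vehicle-treated ligated libraries. Member 18 had 121, 170 and 223 CPM, against 693, 989 and 1396 CPM with vehicle, a log2 change of -2.06 (SE 0.18; adjusted p = 6.17e-14). It was also lower with Sora (-1.02; adjusted p = 6.61e-06) and with Nint (-0.70; adjusted p = 0.00134), and these groups overlapped with vehicle. Member 147 went from 18.8 ± 2.18 to 3.43 ± 1.30 CPM and member 164 from 22.5 ± 1.90 to 5.77 ± 1.21 CPM, both without overlap. Without the BDL_veh libraries the mean of member 164 would be under 10 CPM. Its place in the set thus rests on its vehicle level, and its values are a description only. Members 23 and 40, lower after ligation, were higher with SB525334: member 23 had 288 ± 25.2 CPM against 117 ± 6.37, and member 40 had 172 ± 47.3 CPM against 54.6 ± 5.92, again without overlap.

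In the fit of all 48 libraries, Sora changed few of the members. Of the 172, 12 were higher and 16 lower than with vehicle and 144 were not called, so that 16.3% were called, against 29.3% of all genes tested (16.3% higher and 13% lower) and 30.2% of abundant coding-table genes. The split moved to 8 higher and 25 lower with relative log expression factors, to 9 and 28 with DESeq2 and to 7 and 30 with total counts. When only the 2 groups were fitted, 56 members were called, 16 higher and 40 lower. The share of all genes called in that fit is not given here, so this count has no background beside it. Among the leading 10, 3 members were called lower under each of the 5 scalings, those set beside the long intergenic class above. Member 5 had 3192, 3750 and 4084 CPM with Sora, below every vehicle library (4315 to 6478 CPM), a log2 change of -0.45 (SE 0.09; adjusted p = 8.34e-05). Members 8 and 10 fell by 0.48 and 0.36 on the log2 scale. Members 4 and 7, by contrast, had log2 changes of 0.17 and 0.18 and were not called. The mitochondrial ribosomal rate, tested apart from this fit, was higher with Sora, at 0.613% ± 0.0509 (n = 10) of mapped alignments. With vehicle it was 0.524% ± 0.0208 (n = 10; permutation test, adjusted p = 0.000468), and the groups overlapped.

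In the fit of all 48 libraries, Nint changed 20 of the 172 members, 9 higher and 11 lower, and 152 were not called. That is 11.6% called, against 24.3% of all genes tested (13.3% higher and 10.9% lower) and 24.9% of abundant coding-table genes. None of the leading 10 was called. The largest log2 change among them was -0.23 for member 9 (adjusted p = 0.0924), which was called with total counts (-0.26; adjusted p = 0.0286, edgeR). Fitted with vehicle alone, 57 members were called, 17 higher and 40 lower. For this fit too, no share of all genes is given beside the count. The summed share was 9.77% ± 0.246 with Nint (n = 10) and 9.80% ± 0.429 with Sora (n = 10), against 10.5% ± 0.505 with vehicle. Both differences passed a permutation test (adjusted p = 0.00114 and 0.00744), but without member 1 the difference for Nint was -0.37 percentage points and did not pass (permutation test, adjusted p = 0.156).

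A few scarcer members moved with both Sora and Nint. Member 68 had 71.0, 96.8 and 177 CPM with vehicle, 27.1, 33.4 and 62.7 CPM with Sora and 15.4, 20.9 and 33.4 CPM with Nint. Neither compound group overlapped with vehicle, and the log2 changes were -1.37 (SE 0.28; adjusted p = 0.000171) and -2.17 (SE 0.29; adjusted p = 1.03e-07). Sham slices had 10.9 ± 5.02 CPM of it. Member 164 had 6.93 to 11.3 CPM with Sora and 10.5 to 16.3 CPM with Nint, below the 20.0 to 25.9 CPM with vehicle. Its place in the set rests on that vehicle level, so these values are a description only. Member 145 had 18.02 to 23.5 and 18.3 to 24.5 CPM, above the 9.42 to 16.1 CPM with vehicle. Member 149 was called higher with both, at means of 16.001 ± 9.10 and 22.2 ± 7.69 CPM against 7.08 ± 3.68 CPM, although its libraries overlapped. Sora and Nint share the vehicle libraries as controls, so their changes are not independent of each other. The members were chosen here after their values were seen.

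SB525334 was also compared directly with the other compounds. Against Sora, 102 members were higher, 31 lower and 39 not called (77.3% called, against 72.4% of all genes tested, 36.1% higher and 36.3% lower). Against Nint, 101 were higher, 32 lower and 39 not called (77.3% called, against 72.7% of all genes tested, 36.4% higher and 36.3% lower). With total counts these splits became 73 and 68, and 71 and 74. All 10 leading members were higher in both comparisons under each of the 5 scalings, with log2 changes of 0.79 to 1.54 against Sora and 0.70 to 1.64 against Nint. The summed share was higher than with Sora by 6.71 percentage points and than with Nint by 6.75, without overlap (exact permutation tests, adjusted p = 4.33e-05 for both).

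The comparison of ligated with sham vehicle slices and that of SB525334 with Sora have no library in common, so their calls can be set side by side. Of the 68 members lower after ligation, 48 (70.6%) were higher with SB525334 than with Sora, which is 47.1% of the 102. For all genes tested the shares were 45.5% and 53.3%, and 19.2% of all genes tested were called in both of these directions. Higher calls against Sora were more frequent among the members to begin with, at 59.3% of all 172 against 36.1% of all genes tested. Against Nint these shares were 58.7% and 36.4%. Of the 71 members higher after ligation, 20 (28.2%) were lower with SB525334 than with Sora, which is 64.5% of the 31; for all genes tested the shares were 44.8% and 49.4%, and 17.9% were called in both. Of the 71, 32 (45.1%; 31.4% of the 102) were higher in both comparisons, against 27.6% and 30.6% for all genes tested (11% called in both). Set against Nint in place of Sora, 47 of the 68 (69.1%; 46.5% of the 101) were higher, against 48.1% and 55.8% for all genes tested (20.3% called in both directions). Of the 71, 23 (32.4%; 71.9% of the 32) were lower, against 47.6% and 52.4% (19% called in both), and 31 (43.7%; 30.7% of the 101) were higher, against 26.1% and 28.7% (10.5% called in both). Lower in both comparisons were 7 of the 68 when set against Sora (10.3%, and 22.6% of the 31). For all genes tested the shares were 28.0% and 32.6%, and 11.8% were called in both. Set against Nint, 5 of the 68 were lower in both (7.35%, and 15.6% of the 32). The shares of all genes tested were 25.6% and 29.7%, with 10.8% called in both. All these counts use TMM factors, and total counts change the splits as given above.

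The rates of RNA classes, counted from alignments of the same reads, covered 22 classes and 3 genome regions, tested together with permutation tests (150 tests). Ligation lowered 14 of the 25 rates and raised 9. The mitochondrial ribosomal rate was 0.524 times that of sham, the long intergenic rate 0.555 times and the microRNA rate 0.511 times. The microRNA ratio rested on sham libraries 1, 3, 5 and 9: without them the ratio was 0.923 (exact permutation test, adjusted p = 0.23). The small Cajal body rate was 1.77 times that of sham, the spliceosomal (snRNA) rate 1.61 times and the small nucleolar rate 1.35 times. The ribozyme rate, the class that member 6 was set beside above, was 0.297% ± 0.0323 (n = 9) in Sham_veh and 0.304% ± 0.0253 (n = 10) in BDL_veh (exact permutation test, adjusted p = 0.622).

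With SB525334, 14 of the 25 rates were higher than with vehicle and 5 lower. The mitochondrial ribosomal rate was 1.20% ± 0.373 (n = 9) against 0.524% ± 0.0208 (n = 10), a ratio of 2.30, and 2.09 without library 4. The microRNA rate had a ratio of 2.44, and 2.02 without library 4. SB525334 libraries 1, 6 and 8 had microRNA rates of 0.0202%, 0.0154% and 0.0188%, inside the BDL_veh range of 0.0150% to 0.0209%. Ratios of misc_RNA (1.65), spliceosomal (1.54), ribozyme (1.48), small Cajal body (1.45), small nucleolar (1.36) and long intergenic RNA (1.30) were also above 1, each with an adjusted p under 0.05 by exact permutation test. The class processed_transcript was lower, 0.144% ± 0.0126 against 0.183% ± 0.00924, after a rise from 0.123% ± 0.00985 in Sham_veh. With Sora, 6 of the 25 rates were higher than with vehicle and 7 lower. The mitochondrial ribosomal rate was 1.17 times that with vehicle, the Mt_tRNA rate 1.31 times and the mitochondrial rate 1.21 times, each passing the permutation test. The long intergenic rate, 0.620% ± 0.0482 with vehicle, was 0.514% ± 0.0249 with Sora (permutation test, adjusted p = 0.000162) and 0.604% ± 0.0362 with Nint (adjusted p = 0.481). The spliceosomal, small Cajal body, small nucleolar and ribozyme rates with Nint were 0.874, 0.910, 0.899 and 0.902 times those with vehicle, each passing the test.

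**Figure D5:**
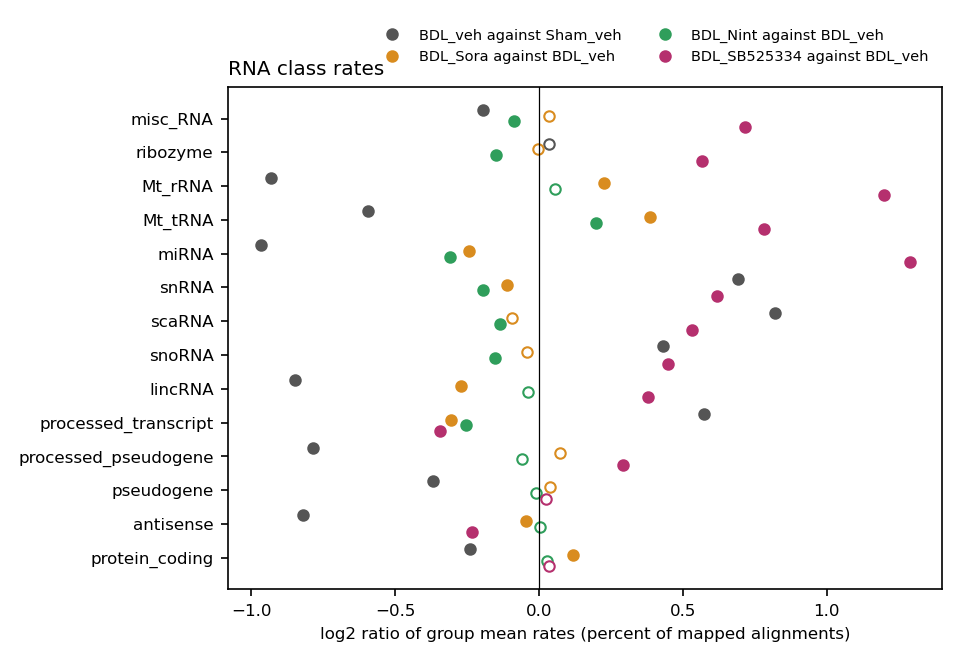
Log2 ratio of group mean rates (percent of mapped alignments) for 14 RNA classes in 4 comparisons; filled points passed an adjusted p of 0.05 by permutation test, open points did not. SB525334 points lie right of 0 for most non-coding classes, and ligation points lie left of 0 for mitochondrial ribosomal, microRNA and long intergenic classes and right of 0 for snRNA, scaRNA and snoRNA.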

How the data were processed

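RNA of 48 rat liver slice libraries was prepared with the RNeasy 96 kit and sequenced after standard Illumina library preparation, per the labels' protocols. Whether polyadenylated RNA was selected or ribosomal RNA removed is not given in the sources used here. RSEM and edgeR, with no versions, and the build Rnor_6.0 are named per the submitters' processing notes. The authors deposited expected counts (estimated counts, not normalised); 8.02% of the values differed from a whole number by more than 1e-06. They also deposited log2 CPM of 14418 coding genes, used here only for their identifiers, and quality scores and alignment counts per library; class rates are percent values recomputed from those deposited counts. The quality table shows 98.7% to 99.2% of read pairs antisense to genes, so the libraries mark strand, but the strand setting of the counting is not given, and overlapping genes remain uncertain.

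The reference table (GRCr8, 47357 genes) holds 0 Ensembl identifiers, so lists that need symbols were not applied. Counts were rounded, filtered with filterByExpr and tested with edgeR 4.0.16 (R 4.3.3; TMM, robust quasi-likelihood fit of all 48 libraries, 1 coefficient per group, adjusted p under 0.05, 6 comparisons); standard errors come from the F statistic. The scripts were tested on simulated data. Alternatives were DESeq2 1.42.0, other scalings, no filter, pairs of groups alone, the number after the letter in the library code (read here as a plate column, which no label states), replicate block and libraries left out. Shares and rates used two-sided permutation tests (SciPy 1.17.1), in exact form for groups under 10 libraries and by 100000 draws for larger ones. Without symbols, identifiers are printed for the 2 members with the largest called rise and the 2 with the largest called fall under SB525334 against vehicle. The members and lists were chosen with earlier results of these data known.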

Additional observations from a re-analysis of the deposited data

Results flagged for a closer look

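In 14 of 125 groups of library values, the highest or lowest library lay apart from the others by more than Dixon's 95% limit; chance gives about 1 in 20. Library 4 of SB525334 accounted for 5 of these: member 1 at 83115 CPM (others up to 49357), member 4 at 34457 CPM (others up to 22370), member 7 at 7138 CPM (others up to 4499), the microRNA rate at 0.101% (others up to 0.0548%) and the mitochondrial ribosomal rate at 2.06% (others up to 1.36%). Library 9 of Nint was low for member 1, at 3648 CPM, and high for member 3, at 34617 CPM. Library 1 of Sora was low for members 4 and 7, at 8790 and 1341 CPM (the others from 10520 and 1725 CPM). Member 18 was at 928 CPM in Sora library 3, against 642 CPM or less in the others, and member 9 at 2502 CPM in ligated vehicle library 10, against 2214 CPM or less. ENSRNOG00000001103 was at 11.4 CPM in ligated vehicle library 1, against 8.88 CPM or less. ENSRNOG00000052547 was at 0.557 CPM in sham library 2, against 0.279 CPM or less. The snRNA rate was 0.0216% in ligated vehicle library 4, against 0.0197% or less.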

How the results depend on the processing

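Counts of called members stayed within 1.5 times the value reported in all but 2 of the alternatives run: fitted as pairs of groups alone, Sora against vehicle gave 56 calls (28 reported) and Nint against vehicle 57 (20 reported); the cause was not tested. These counts add higher and lower calls, so they do not show which calls changed. With total counts, SB525334 against vehicle lost 29 calls, gained 37 and reversed 4. Ligation lost 27 and gained 26. The summed share of sham and ligated vehicle slices differed by -0.66 percentage points without member 1 (adjusted p = 0.0635, permutation test), by -1.18 without vehicle libraries 3 and 6 (adjusted p = 0.0568) and by 0.0738, the other direction, without sham libraries 1, 3, 5 and 9 (adjusted p = 0.761); that of Nint against vehicle was -0.37 without member 1 (adjusted p = 0.156). For ENSRNOG00000054031 with Sora, not called at a log2 change of 0.04, the sign changed with the code number read as a plate column as a term (-0.00095) and with total counts (-0.018). With the replicate number as a block, the calls were 138, 29, 20, 129, 129 and 131 in the 6 comparisons, in the order ligation, Sora, Nint, SB525334 against vehicle, against Sora and against Nint. The shares of all genes called in the alternative fits are not given here, so member counts from them have no background beside them. Same-numbered libraries mostly did not deviate together (median correlations -0.04 to 0.11). Single pairs reached 0.55 for Sora and 0.43 for Nint against vehicle. Libraries correlated best with their own number in 1 to 3 of 9 or 10 pairs, so the numbers were not taken as pairs. Leaving out sham libraries 1, 3, 5 and 9, Nint library 9 or SB525334 library 4 and summing members 1 and 3 were chosen after seeing the data. Single libraries were otherwise not left out. Depth limits members near 0 in sham slices: 3 counts equal 0.101 to 0.245 CPM.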
